A study of Mus musculus with 12 samples.

Results

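The genes of glycolysis and of the hypoxia response were followed across 12 libraries of mouse regulatory T cells (Tregs), a class of CD4 T cells that depends on Foxp3 and holds immune responses in check. The 36 genes were taken from a list of glucose and lactate transporters, glycolytic enzymes, their control enzymes, Hif1a with its oxygen-sensing partners, and known Hif1 target genes. They were matched by symbol, with no measured value used to choose them, though earlier results of these data were then known. All 36 stood among the 23361 genes of the deposited table. Of these, 35 passed the filter on low values and were tested, out of 10868 genes tested in all. Vegfa, which encodes an angiogenic growth factor, was not tested, because its libraries held only 0 to 6 rescaled counts.

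Tregs were either wild type (Wt) or deficient in Lag3, an inhibitory receptor that binds MHC class II. They came from pancreatic islets, the tissue under attack, or from non-draining lymph nodes (NDL), in an autoimmune diabetes model. Each of the 4 groups (Wt islet, Lag3-deficient islet, Wt NDL and Lag3-deficient NDL) had 3 libraries, named 1a, 2 and 1b after the column numbers, where 1b is the second column numbered 1. The sources used here give no strain, age, sex or sort of the cells, nor how the Lag3 deficiency was made and whether it was limited to Tregs. The labels do not tie the libraries of a group to separate animals, and p-values therefore measure a spread between libraries that may be technical.

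Glycolysis splits glucose into pyruvate. A preparatory phase from hexokinase to triosephosphate isomerase spends ATP, and a payoff phase from glyceraldehyde-3-phosphate dehydrogenase to pyruvate kinase returns it. Lactate dehydrogenase then converts pyruvate to lactate, which leaves the cell through monocarboxylate transporters. Hif1 is a transcription factor made of Hif1a and Arnt. In oxygenated cells the prolyl hydroxylases encoded by Egln1 and Egln3 mark the Hif1a protein for Vhl, which sends it to the proteasome, so the control of Hif1 lies largely at the protein. Many glycolytic genes are Hif1 targets, and T cells raise glycolysis on activation.

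Levels are given in CPM, a level relative to the library's total after scaling by trimmed means, where 1 CPM is about 15.3 rescaled counts. Library totals were 15232498 to 15370098 rescaled counts, so the sequencing depth cannot be read from them. Rn45s, a ribosomal RNA gene, took 1.26 to 1.68% of the signal in the 4 libraries named 1b and 0.149 to 0.571% in the remaining 8. Lag3-deficient islet 2 stood apart with 927 of the tested genes at 0, against 399 to 789 elsewhere. The targeted gene, Lag3, was at 40, 48 and 120 rescaled counts in Wt islet 1a, 2 and 1b, and at 1, 0 and 0 in the Lag3-deficient islet libraries. Its NDL levels were 2, 5 and 6 rescaled counts in Wt and 1, 0 and 3 in Lag3-deficient libraries, so the NDL libraries hardly check the genotype. Of the 6 markers of Tregs and T cells, Foxp3 ranged from 224 to 483 CPM in islet and from 311 to 654 CPM in NDL libraries, and Ctla4, an inhibitory receptor gene, from 1825 to 3371 CPM and from 242 to 544 CPM. The 6 summed to 3150 to 5266 CPM in islet and 1811 to 2639 CPM in NDL libraries, and without Ctla4 to 1324 to 1895 CPM and 1540 to 2095 CPM, which overlapped. The B cell gene Pax5 was at 0 in all 12.

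The first comparison was between islet and NDL Tregs. Hif1a was higher in islet Tregs, about 3.02-fold on the log2(CPM + 1) scale, and was the only 1 of the 35 tested genes to pass the test. Most enzymes of the payoff phase and the preparatory phase had higher fitted levels in islets, among them Gapdh, Pgk1, Pkm and Pfkp, but none of them passed. Of the 6 tested Hif1 targets outside glycolysis, 2 had a fitted difference above 0, and none passed. With both genotypes averaged, an adjusted p under 0.05 was reached by 100 of all genes tested (0.92%), 89 higher and 11 lower in islets. Without Wt islet 1a this count was 65.

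Hif1a encodes the oxygen-regulated subunit of Hif1. Its level was 308, 321 and 463 CPM in Wt islet 1a, 2 and 1b. In Lag3-deficient islet 1a, 2 and 1b it was 321, 248 and 457 CPM. All 6 islet libraries lay above all 6 NDL libraries, in which it was 147, 92.8 and 102 CPM for Wt and 102, 161 and 93.8 CPM for Lag3-deficient cells. The tissue averages were 353 ± 87.1 CPM in islets and 116 ± 29.6 CPM in NDL (SD, n = 6 libraries each). The log2 difference was 1.59 ± 0.31 (SE), with a 95% interval of 0.94 to 2.25, an unadjusted p of 6.05e-05 by limma and an adjusted p of 0.0144. It was 1.67 ± 0.44 within Wt (adjusted p = 0.188) and 1.51 ± 0.44 within Lag3-deficient cells (adjusted p = 0.263), and these did not differ detectably (-0.16 ± 0.63, interval -1.47 to 1.14, adjusted p = 0.9998).

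Libraries of the same column set (1a, 2 or 1b) were also set against each other, to see the difference within each set. For Hif1a, islet minus NDL was 1.07 and 1.64 in Wt and Lag3-deficient 1a, 1.78 and 0.62 in 2, and 2.17 and 2.27 in 1b. The difference was above 0 in all 6 and was highest in the libraries with the most Rn45s signal, whose part in it was not tested. Without Wt islet 1b the adjusted p was 0.051 (log2 difference 1.49), and without all 1b libraries it was 0.13 (1.27). In bulk libraries, a larger share of cells that express a gene and more RNA per cell cannot be told apart.

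Signs of other cells also differed between the tissues. The summed 15 exocrine pancreas markers ranged from 33.6 to 3212 CPM in islet and from 0 to 4.91 CPM in NDL libraries. The endocrine markers ranged from 2.97 to 234 CPM against 0 to 0.58 CPM, and neither list overlapped between tissues. The erythroid markers were at 524 CPM in Wt islet 1a and 228 CPM in Lag3-deficient islet 1b, but at 0 to 0.881 CPM in the other 4 islet libraries and 0 to 0.184 CPM in NDL. In Wt islet 1a, 2 and 1b the exocrine sum was 3212, 200 and 778 CPM, beside 308, 321 and 463 CPM of Hif1a. In Lag3-deficient islet 1a, 2 and 1b it was 572, 33.6 and 345 CPM, beside 321, 248 and 457 CPM of Hif1a. Myeloid markers (0.416 to 103 CPM in islets, 0.145 to 37.6 CPM in NDL), B cell markers (6.94 to 220 CPM in islets, 22.1 to 99.2 CPM in NDL), stromal and endothelial markers (1.42 to 95.5 and 6.3 to 113 CPM) and CD8 and NK markers (1.15 to 16.9 and 0.242 to 13.4 CPM) overlapped between tissues. Their part in the tissue differences of these genes was not tested.

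Hif1a lies on chromosome 12, 73901375 to 73947530, plus strand (GRCm38, GENCODE vM21). It overlaps Gm49321 on the same strand and Gm15283 on the opposite strand. Overlapping reads from Gm49321 could not be told from its own by strand. Those from Gm15283 could not be told apart either, since no strand setting is stated. Its promoter is shown because Hif1a is the gene that passed the test. The 250 bases before the RefSeq start (GRCm38.p6, chr12:73907617-73907866, plus strand) read as follows, with the letters ACGTG, on either strand, in capitals. This is the core of the hypoxia response element.
Hif1a: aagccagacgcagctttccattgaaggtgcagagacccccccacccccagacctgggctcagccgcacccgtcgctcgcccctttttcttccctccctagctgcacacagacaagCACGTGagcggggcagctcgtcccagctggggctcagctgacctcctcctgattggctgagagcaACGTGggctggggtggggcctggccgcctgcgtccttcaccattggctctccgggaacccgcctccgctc

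The promoters of the other genes were searched in the same way, because many of them are known Hif1 targets. RefSeq promoters were matched for 34 of the 36 genes. ACGTG, on either strand, stood in 18 of the 34 (52.9%), in 25.8% of 8156 tested genes with a promoter and in 18.5% of all 27025 genes. Counted by promoter, it stood in 16.6% of all 32851 windows of 250 bases. This share cannot be set against the shares by gene, in which a match in any promoter of a gene counted. The palindrome CACGTG, which holds ACGTG on both strands, stood in 6 of 34 (17.6%), 10.3% of tested genes and 6.86% of all genes. GCGTG, the other common form of the core, stood in 22 of 34 (64.7%), 51.4% of tested genes and 30.9% of all genes. Such a match is a description of the letters and shows no binding. Stretches of 31 bases around a match are given for 3 enzymes, chosen after their values were seen, with the match in capitals: chr7:46845743-46845773 for Ldha, chrX:106186937-106186967 for Pgk1 and chr9:59657139-59657169 for Pkm, all on the plus strand of GRCm38.p6.
Ldha: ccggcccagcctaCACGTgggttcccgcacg
Pgk1: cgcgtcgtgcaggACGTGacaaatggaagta
Pkm: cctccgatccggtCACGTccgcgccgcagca

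**Figure D1:**
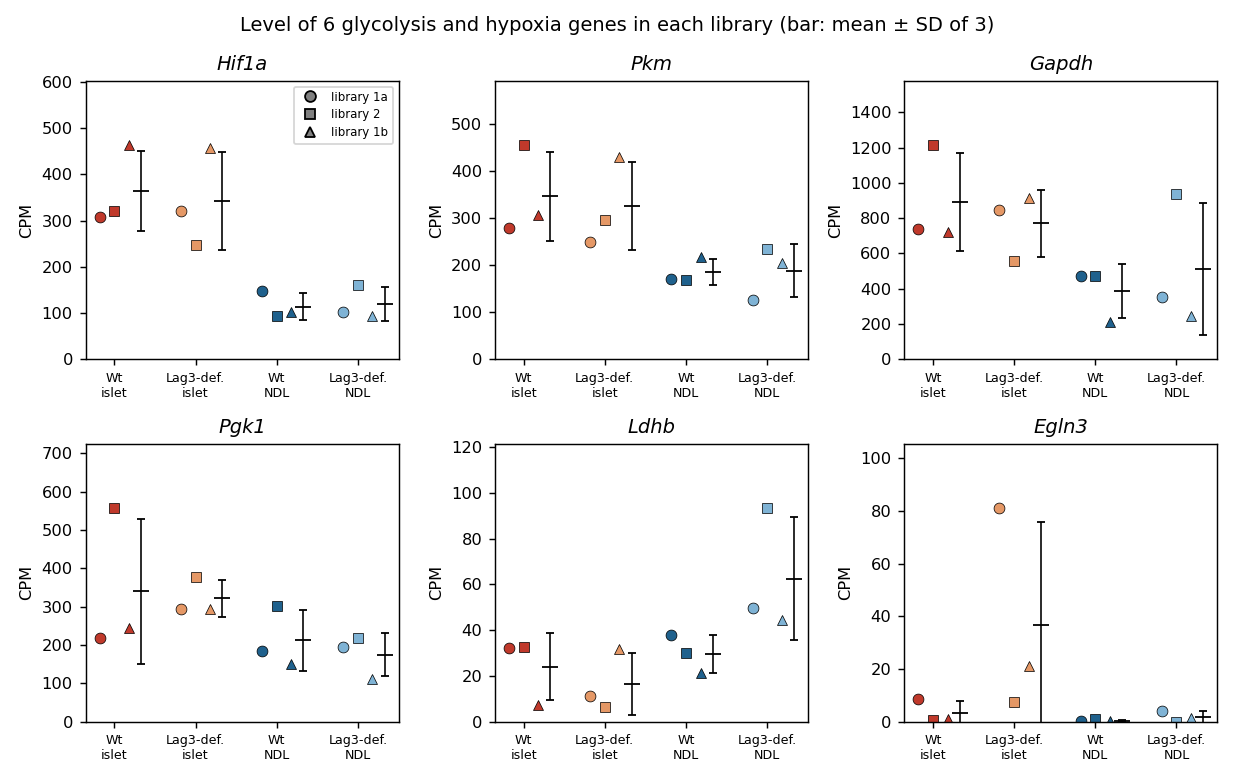
Level in CPM (vertical axis, linear from 0) of Hif1a, Pkm, Gapdh, Pgk1, Ldhb and Egln3 in each library of the 4 groups. Symbols mark the column number and bars the mean ± SD of 3 libraries. For Hif1a and Pkm all 6 islet libraries lie above all 6 NDL libraries, and for Egln3 Lag3-deficient islet 1a stands alone at 81.1 CPM.

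With both genotypes averaged, 21 of the 35 tested genes had a fitted level above 0 in islet minus NDL, with a median log2 difference of 0.29. Over all genes tested, 47.9% were above 0 and the median was -0.04. An unadjusted p under 0.05 was reached by 8 of the 35 (22.9%), against a background of 11.3%. Of these, 7 were higher in islets (Hk2, Pfkp, Gapdh, Pgk1, Pkm, Hif1a and Egln3) and 1, Eno1, was lower. Eno1 passed the filter only through 3 NDL libraries, so nothing is read from a count that holds it, and without it the count was 7 of 34 (20.6%), with 21 of 34 above 0 and a median of 0.31. Without Wt NDL 1a, the count fell from 8 to 5. The 6 islet libraries lay wholly above the 6 NDL libraries for Pkm and Hif1a, 2 genes (5.71%) against a background of 1.32%. No gene of the list lay wholly below, against 0.478% of all genes.

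Glucose enters T cells mainly through Slc2a1 and Slc2a3, the transporters Glut1 and Glut3. Slc2a1 was at 1.93, 6.24 and 5.97 CPM in Wt islet 1a, 2 and 1b with 1.28, 74.7 and 0.555 CPM in Lag3-deficient islets. In NDL it lay between 8.53 and 14.2 CPM. Thus 5 islet libraries were below every NDL library, and Lag3-deficient islet 2, with 1356 rescaled counts, was above all of them. The averaged log2 difference was -1.16 ± 1.02 (adjusted p = 0.72). Slc2a3 was at 75.9, 44.4 and 29.4 CPM in Wt islet and 77, 5.51 and 59.5 CPM in Lag3-deficient islet 1a, 2 and 1b. The NDL libraries held 24.1, 19.3 and 12.5 CPM in Wt and 44.1, 36.1 and 0.0748 CPM in Lag3-deficient libraries. The 3 Wt islet libraries lay above the 3 Wt NDL libraries, while the Lag3-deficient groups overlapped, and the averaged difference was 1.34 ± 0.92 (adjusted p = 0.619). The share of all genes whose islet and NDL libraries separate within 1 genotype is not given here. Nothing is therefore read from such a separation, for Slc2a3 or for the genes below.

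In the preparatory phase, 7 of 9 genes were above 0 in islet minus NDL, with a median log2 difference of 0.55, and none passed. Pfkp, the platelet form of phosphofructokinase, the enzyme of the committed step, was at 258, 158 and 95.1 CPM in Wt islet and 72.4, 82.2 and 87.1 CPM in Lag3-deficient islet 1a, 2 and 1b. In NDL it was at 121, 55 and 39.2 CPM in Wt and at 75, 71.9 and 13.9 CPM in Lag3-deficient libraries. The tissues overlapped, and the averaged difference was 1.09 ± 0.49 (unadjusted p = 0.0383, adjusted p = 0.404). Pfkm, the muscle form, was nearly at 0 in Lag3-deficient islets (0.0754, 0 and 1.04 CPM) and at 11.4, 15 and 20.4 CPM in Lag3-deficient NDL. Its log2 difference there was -3.64 ± 1.24 (adjusted p = 0.408), and it was 0.23 ± 1.24 in Wt (adjusted p = 0.995). Pfkl, the liver form, differed by -0.15 ± 0.58 with both genotypes averaged (adjusted p = 0.95).

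Hexokinase traps glucose in the cell as glucose-6-phosphate. Hk2, the inducible hexokinase, was low, at 1.87 to 17.7 CPM in islet libraries and 0 to 4.79 CPM in NDL, where Wt NDL 2 and 1b were at 0. Its averaged log2 difference was 1.70 ± 0.76 (unadjusted p = 0.0373, adjusted p = 0.4). Hk1, the constitutive form, was at a median of 23.5 CPM in islets and 22.9 CPM in NDL (difference 0.29 ± 0.71, adjusted p = 0.921). Gpi1, which turns glucose-6-phosphate into fructose-6-phosphate, ranged from 111 to 415 CPM in islets and from 124 to 314 CPM in NDL (0.29 ± 0.35, adjusted p = 0.807). Aldoa, the main aldolase, which splits fructose-1,6-bisphosphate, was higher in all 3 Wt islet libraries (503, 499 and 532 CPM) than in Wt NDL (304, 248 and 377 CPM). Its averaged difference was 0.67 ± 0.33 (adjusted p = 0.462). Tpi1, triosephosphate isomerase, was at 96.8, 145 and 79.5 CPM in Wt islet and 51.3, 9.75 and 43.5 CPM in Wt NDL 1a, 2 and 1b, which did not overlap, with a difference of 1.84 ± 0.78 in Wt (adjusted p = 0.57) and -0.35 ± 0.78 in Lag3-deficient cells (adjusted p = 0.92). Aldoc, the brain aldolase, was at or below 4.67 CPM in 10 libraries, with 30 CPM in Wt islet 1b and 12.4 CPM in Lag3-deficient NDL 2.

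The payoff phase follows, with 4 of 6 genes above 0 in islet minus NDL and a median log2 difference of 0.70 (4 of 5 and 0.76 without Eno1). Gapdh, whose enzyme reduces NAD+ while oxidising glyceraldehyde-3-phosphate, was at 740, 1214 and 722 CPM in Wt islet and 846, 556 and 912 CPM in Lag3-deficient islet 1a, 2 and 1b. Its NDL levels were 474, 473 and 211 CPM in Wt and 350, 939 and 244 CPM in Lag3-deficient libraries. A single NDL library, Lag3-deficient NDL 2, reached the islet range. The averaged difference was 1.03 ± 0.33 (interval 0.34 to 1.73, unadjusted p = 0.00577, adjusted p = 0.192). Gapdh has 73 near copies in the annotation, 71 of them pseudogenes, with at least 200 matching bases at 95% identity or more, so its level is uncertain.

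Pgk1, phosphoglycerate kinase, makes the first ATP of this phase. It ranged from 218 to 558 CPM in islets (median 294) and from 112 to 303 CPM in NDL (median 191), and the tissues overlapped (0.76 ± 0.33, unadjusted p = 0.0317, adjusted p = 0.374). Pkm, pyruvate kinase, which makes the last ATP, was at 277, 454 and 305 CPM in Wt islet and 248, 296 and 429 CPM in Lag3-deficient islet 1a, 2 and 1b. The NDL libraries held 169, 168 and 217 CPM in Wt and 126, 233 and 204 CPM in Lag3-deficient libraries. No islet library overlapped an NDL library, and the averaged difference was 0.83 ± 0.30 (interval 0.21 to 1.46, unadjusted p = 0.0113, adjusted p = 0.254). Pgam1, phosphoglycerate mutase, differed by 0.64 ± 0.37 (adjusted p = 0.539), with Lag3-deficient islet libraries (106 to 189 CPM) above Lag3-deficient NDL libraries (47.8 to 90.8 CPM).

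Both enolase genes of this phase had fitted differences below 0. Eno1, the broadly expressed enolase gene, was listed at 0 in 9 of 12 libraries, among them all 6 islet libraries. It had values only in Wt NDL 1a (132 rescaled counts), Lag3-deficient NDL 1a (940) and Lag3-deficient NDL 2 (344). It passed the filter through these NDL libraries alone, so its averaged difference of -2.20 ± 0.81 (adjusted p = 0.277) is a description. Eno1 is nearly identical to Eno1b, listed in the table as Gm5506, over 1736 bases at 99.5% identity, and Gm5506 held 4 to 1208 rescaled counts. The authors' counting could therefore have split or lost reads of this enzyme, and its level is not known here. Eno3, the muscle enolase, ranged from 13.3 to 140 CPM in islets and from 14.7 to 146 CPM in NDL (-0.39 ± 0.63, adjusted p = 0.863).

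The 17 glycolytic enzyme genes from the hexokinases to the lactate dehydrogenases together took 0.343% ± 0.054 of the signal in islet libraries and 0.246% ± 0.069 in NDL libraries (SD, n = 6). The islet libraries ranged from 0.269 to 0.421% and the NDL libraries from 0.156 to 0.347%, so the tissues overlapped. Compared per kilobase of transcript, the order of median levels in islets was Gapdh (623 CPM per kb), Ldha (462), Aldoa (323), Mif (283) and Pgk1 (161). In NDL it was Gapdh (323 CPM per kb), Ldha (300), Mif (270), Aldoa (199) and Bnip3l (112). The ranges of neighbours in this order overlapped, for example 437 to 954 CPM per kb for Gapdh and 332 to 575 for Ldha in islets. Hif1a stood at a median of 67.9 CPM per kb in islets and 21.6 in NDL.

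**Figure D2:**
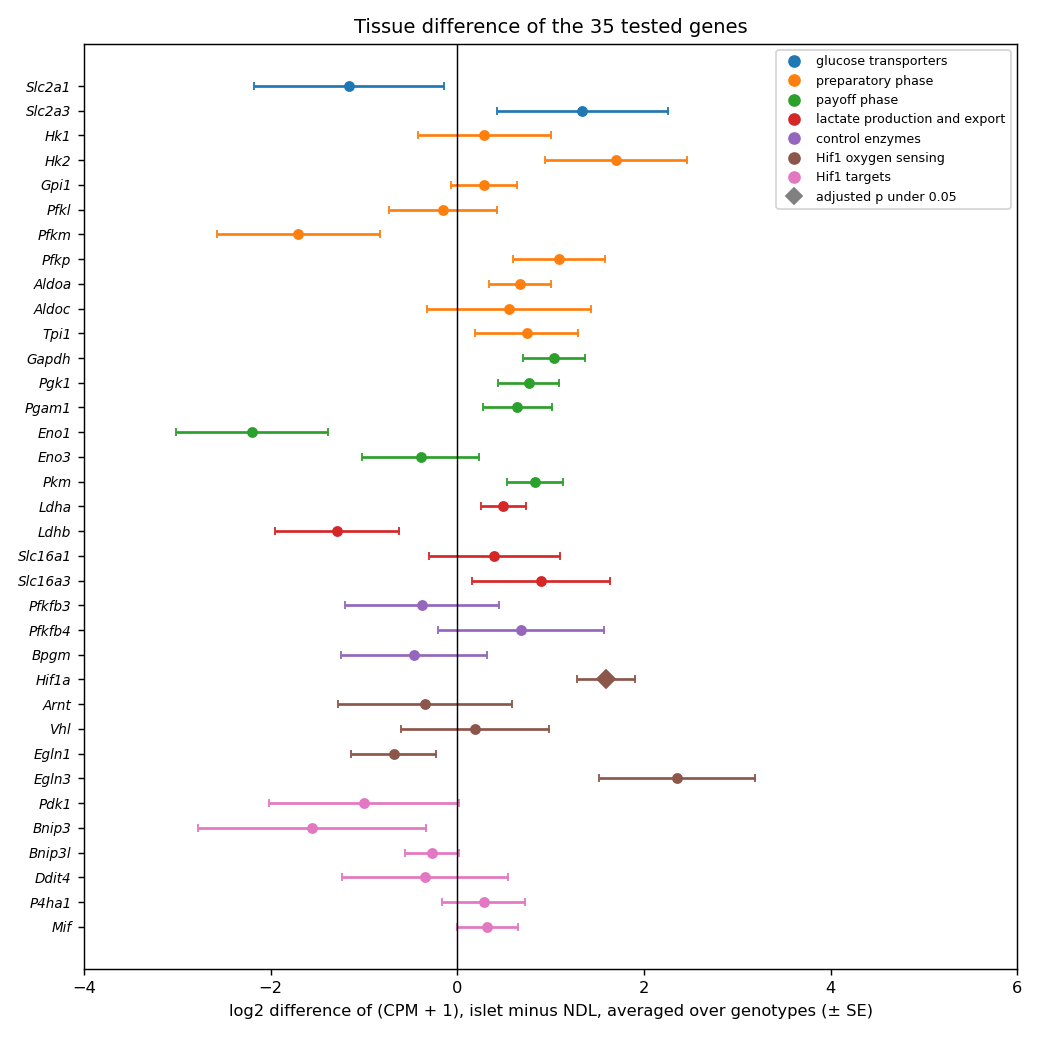
Log2 difference of (CPM + 1), islet minus NDL averaged over genotypes (horizontal axis, ± SE), for the 35 tested genes in the order and colours of their roles. The diamond marks Hif1a, at 1.59, the only gene with an adjusted p under 0.05. The payoff phase genes Gapdh, Pgk1, Pgam1 and Pkm lie between 0.64 and 1.03, and Eno1 at -2.20.

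Lactate dehydrogenase is built from the subunits encoded by Ldha, which favours the making of lactate, and Ldhb, which favours its oxidation. Ldha was at 619, 971 and 885 CPM in Wt islet and 602, 792 and 1043 CPM in Lag3-deficient islet 1a, 2 and 1b. In NDL it was at 526, 514 and 565 CPM in Wt and at 488, 705 and 653 CPM in Lag3-deficient libraries. All Wt islet libraries lay above all Wt NDL libraries, and the averaged difference was 0.49 ± 0.24 (adjusted p = 0.456). Ldhb was at 32.4, 32.6 and 7.12 CPM in Wt islet and 11.3, 6.44 and 32 CPM in Lag3-deficient islet libraries. Its NDL levels were 37.9, 29.9 and 21.3 CPM in Wt and 49.8, 93.5 and 44.3 CPM in Lag3-deficient libraries. It was lower in all 3 Lag3-deficient islet libraries than in all 3 Lag3-deficient NDL libraries, and the averaged difference was -1.29 ± 0.66 (adjusted p = 0.478).

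A ratio within a library depends less on the scaling between libraries, except for genes near or below 1 CPM, such as Egln3 in NDL, where the added 1 matters. For this reason 10 pairs of isoenzyme or isoform genes were compared. The log2 ratio of Ldha to Ldhb was 5.53 ± 1.05 in islets and 3.75 ± 0.62 in NDL (SD, n = 6), a difference of 1.78. It was higher in all 3 Lag3-deficient islet libraries (4.98 to 6.74) than in Lag3-deficient NDL (2.90 to 3.85), while the Wt libraries overlapped (4.21 to 6.77 and 3.76 to 4.67). A two-sided exact permutation of the tissue labels within genotype gave p = 0.01, where 0.005 is the smallest the design allows, and the Benjamini-Hochberg value over the 10 pairs was 0.05, which is not under the threshold. The ratio of Egln3 to Egln1 gave the same values by the exact permutation test (p = 0.01, adjusted 0.05), with a difference of 3.04 (2.14 with 4 added to each CPM and 3.46 with 0.5 added). The other 8 pairs had adjusted exact p from 0.267 to 0.9, the largest difference among them being 2.5 for Slc2a3 to Slc2a1. Among these 8 is Eno3 to Eno1, from which nothing is read, because Eno1 passed the filter only through 3 NDL libraries. This pair still counted among the 10 of the adjustment, on which the adjusted value of 0.05 depends. An adjustment without it was not run.

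**Figure D3:**
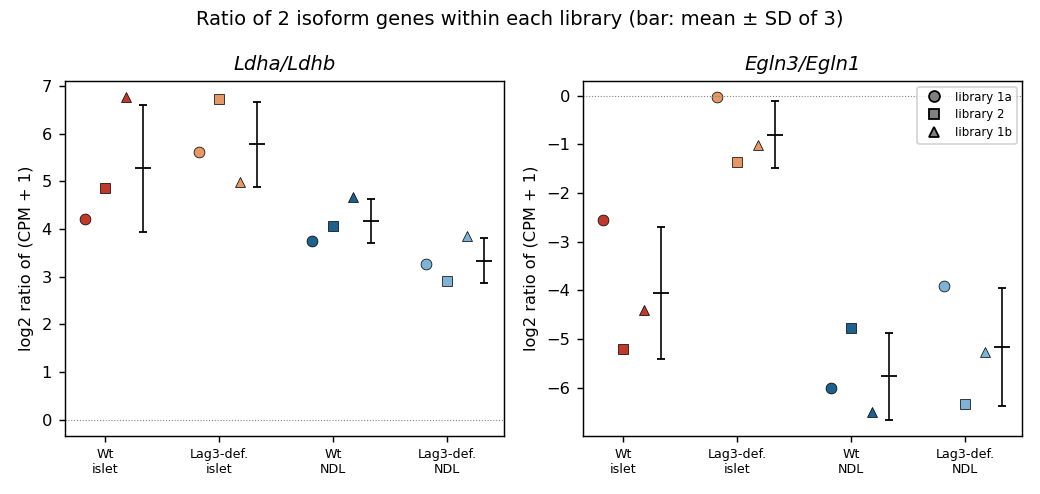
Log2 ratio of (CPM + 1) within each library (vertical axis) for Ldha over Ldhb and Egln3 over Egln1 in the 4 groups, with symbols for the column number and bars for the mean ± SD of 3 libraries. In Lag3-deficient cells the islet ratios of both pairs lie above the NDL ratios, and in Wt cells the ranges overlap.

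Slc16a1 and Slc16a3 encode the lactate transporters Mct1 and Mct4. Slc16a1 ranged from 12 to 126 CPM in islets and from 11.5 to 99.6 CPM in NDL (0.40 ± 0.70, adjusted p = 0.882). Slc16a3 was weak, at 0.136 to 12.9 CPM in islets and 0 to 7.25 CPM in NDL (0.89 ± 0.74, adjusted p = 0.7). The control enzymes varied mostly within groups. Pfkfb3, whose product makes fructose-2,6-bisphosphate, the activator of phosphofructokinase, ranged from 3.36 to 58 CPM in islets and 2.61 to 82.8 CPM in NDL (-0.38 ± 0.83, adjusted p = 0.907). Pfkfb4, a further enzyme of this family, was at 38 CPM in Lag3-deficient islet 1b and at 7.52 CPM or less in the other 11 libraries. Bpgm, which makes 2,3-bisphosphoglycerate, was at 1.82 CPM in Lag3-deficient islet 2 and 9.36 to 52.2 CPM elsewhere.

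Among the oxygen-sensing genes beside Hif1a, Egln3 had the largest fitted difference of the whole list. This hydroxylase gene is itself induced by Hif1. It was at 8.7, 0.514 and 1.22 CPM in Wt islet and 81.1, 7.54 and 21 CPM in Lag3-deficient islet 1a, 2 and 1b. The NDL libraries held 0.123, 0.848 and 0.145 CPM in Wt and 4.22, 0 and 1.27 CPM in Lag3-deficient libraries. The 3 Lag3-deficient islet libraries lay above all 6 NDL libraries, and Wt islet 2 and 1b were within the NDL range. The averaged difference was 2.35 ± 0.84 (interval 0.60 to 4.11, unadjusted p = 0.0112, adjusted p = 0.253).

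Egln1, the main oxygen sensor hydroxylase, was at a median of 50.3 CPM in islets and 78.2 CPM in NDL, with overlap (-0.68 ± 0.46, adjusted p = 0.613). Arnt, the constant partner of Hif1a, ranged from 0.138 to 24.3 CPM in islets and 1.38 to 19 CPM in NDL (-0.35 ± 0.93, adjusted p = 0.931). Vhl, the ubiquitin ligase subunit that binds hydroxylated Hif1a, was at a median of 57.5 CPM in islets and 37.1 CPM in NDL, but at 4.63 and 10.1 CPM in Lag3-deficient islet 2 and Wt islet 1b (0.19 ± 0.79, adjusted p = 0.955).

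The Hif1 targets outside glycolysis are genes of mitochondrial control, growth, vessels and matrix. The median log2 difference of the 6 tested was -0.31. Pdk1, the kinase that holds pyruvate out of the mitochondria, was at 0.0754 to 1.98 CPM in 4 islet libraries and at 17.6 and 19.1 CPM in the islet 1b libraries. In NDL it ranged from 0.217 to 15.8 CPM (-0.9999 ± 1.02, adjusted p = 0.762). Bnip3, a mitophagy receptor, was at 28.5 and 36.7 CPM in the islet 1a libraries and at 1.76 CPM or less in the other 4 islet libraries. In NDL it ranged from 0.15 to 34.9 CPM (-1.56 ± 1.23, adjusted p = 0.683). Its relative Bnip3l was at 191 to 426 CPM in islets and 202 to 630 CPM in NDL (-0.27 ± 0.29, adjusted p = 0.771). Within Wt, its islet libraries (191 to 331 CPM) lay below its NDL libraries (368 to 630 CPM).

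Ddit4, an inhibitor of mTORC1, was at 1.83 to 6.94 CPM in islets and 1.97 to 29 CPM in NDL (-0.34 ± 0.89, adjusted p = 0.926). P4ha1, a collagen prolyl hydroxylase subunit, was at a median of 134 CPM in islets and 109 CPM in NDL (0.28 ± 0.44, adjusted p = 0.861). Mif, a cytokine with near copies in the annotation, was at medians of 154 and 147 CPM (0.32 ± 0.32, adjusted p = 0.759). Near copies by the measure given for Gapdh existed for 12 of the 36 genes in all, among them Pgk1, Pkm, Ldha and Ldhb, whose levels are uncertain to that extent, and none was found for Hif1a.

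**Figure D4:**
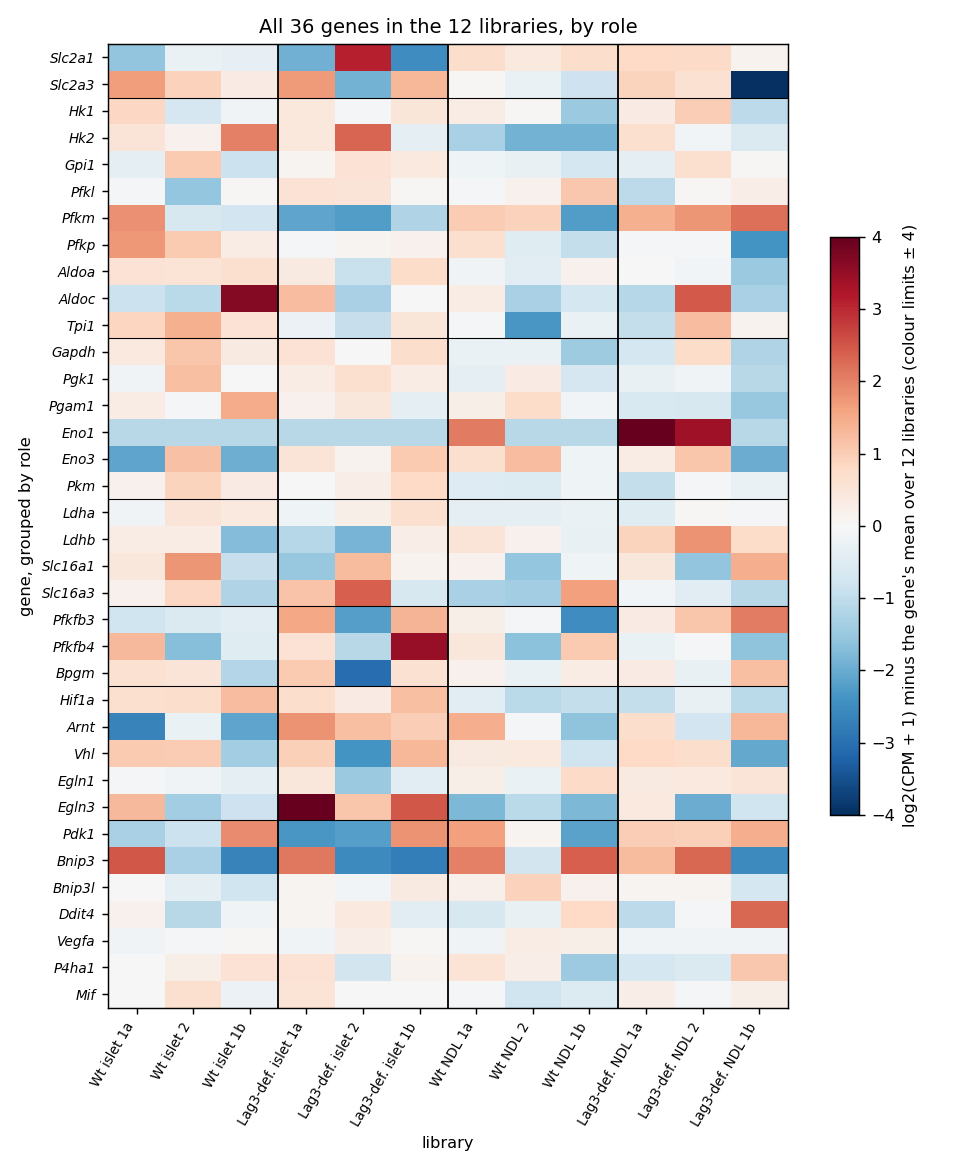
Log2(CPM + 1) of each of the 36 genes minus its mean over the 12 libraries (colour, limits ± 4), with libraries in columns by group and genes in rows by role. The Hif1a row is above its mean in all 6 islet columns and below it in all 6 NDL columns. Pfkfb4 is highest in Lag3-deficient islet 1b and Egln3 in Lag3-deficient islet 1a.

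The tissue difference was also fitted in each genotype, whose comparisons share no library. In Wt cells, 20 of all genes passed (0.184%) and none of the 35, of which 23 were above 0 with a median of 0.28 against 0.10 over all genes. In Lag3-deficient cells, 13 genes passed (0.12%) and again none of the 35, of which 22 were above 0 with a median of 0.26 against -0.15 over all genes. The 2 comparisons had the same sign for 24 of the 35 genes (68.6%), against 58.6% of all genes tested. Of the 24, 17 were above 0 and 7 below 0 in both genotypes. By limma, an unadjusted p under 0.05 was reached by 4 of the 35 in Wt cells (11.4%, against 7.53% of all genes) and by 5 in Lag3-deficient cells (14.3%, against 8.71%). Without Eno1 it was 4 of 34 in each (11.8%), and 23 of 34 genes had the same sign. When 1 library was left out, the count over all genes moved from 20 in Wt cells to 9 without Wt islet 1a and to 11 without Wt islet 1b or any 1 of the Wt NDL libraries. In Lag3-deficient cells it moved from 13 to 32 without Lag3-deficient islet 1b, and the 35 held none of the called genes in either genotype.

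The second comparison asked whether Lag3 deficiency altered these genes, in a series whose title links Lag3 to limits on Treg proliferation and function. No gene of the list passed in islets, in NDL or with tissues averaged, and no gene at all did (0% in each of these comparisons by limma). Without Lag3-deficient islet 1b, 16 genes passed in islets, none of them of the list. The genotype difference of Hif1a was smaller than its error, with a log2 difference, Lag3-deficient minus Wt, of -0.11 ± 0.44 in islets (interval -1.03 to 0.81) and 0.05 ± 0.44 in NDL (interval -0.87 to 0.97). The intervals of Ldha in islets (-0.75 to 0.68) and of Pkm in islets (-0.98 to 0.79) bound what could have been missed. For the weaker genes the intervals were wider, for example -2.72 to 3.29 for Slc2a1.

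In islets, an unadjusted p under 0.05 was reached by 2 of the 35 (5.71%), against a background of 5.74%. Arnt was at 24.3, 15.8 and 13.2 CPM in Lag3-deficient islet 1a, 2 and 1b, above its 0.138, 5.06 and 0.678 CPM in Wt islets (3.01 ± 1.31, adjusted p = 0.851). Egln3 had a difference of 2.96 ± 1.19 (adjusted p = 0.85), with Lag3-deficient islet 2, at 7.54 CPM, below Wt islet 1a, at 8.7 CPM. The groups did not overlap for 2 genes that were higher (Pfkl and Arnt, 5.71% against 3.29% of all genes) and 3 that were lower in Lag3-deficient cells (Pfkm, Pfkp and Tpi1, 8.57% against 6.03%). The median of the 35 was -0.09, against -0.22 over all genes. Scaling by medians of ratios in place of trimmed means moved the median of all genes to -0.03 and that of the 35 to 0.13, so the direction of small differences here follows the scaling.

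In NDL, an unadjusted p under 0.05 was reached by 1 of the 35 (2.86%), against 2.72% of all genes. This was Pgam1, at 90.8, 88.9 and 47.8 CPM in Lag3-deficient NDL and 164, 232 and 130 CPM in Wt NDL 1a, 2 and 1b (-1.21 ± 0.52, adjusted p = 1). The groups did not overlap for 5 genes that were higher in Lag3-deficient cells (Hk2, Pfkm, Ldhb, Pfkfb3 and Mif, 14.3% against 3.89% of all genes). They did not overlap for 2 that were lower (Pgam1 and Bnip3l, 5.71% against 3.63%). The dependence of the genotype effect on tissue was past the threshold for none of the 35 and no gene at all (0%), with an unadjusted p under 0.05 by limma for 1 of the 35 (2.86%, against 4.02% of all genes), Pfkm (-3.87 ± 1.75, unadjusted p = 0.0393, adjusted p = 0.9998). With tissues averaged, Pgam1 (-0.85 ± 0.37) and Egln3 (1.87 ± 0.84) had an unadjusted p under 0.05, 2 of the 35 (5.71%) against 3.68% of all genes.

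**Figure D5:**
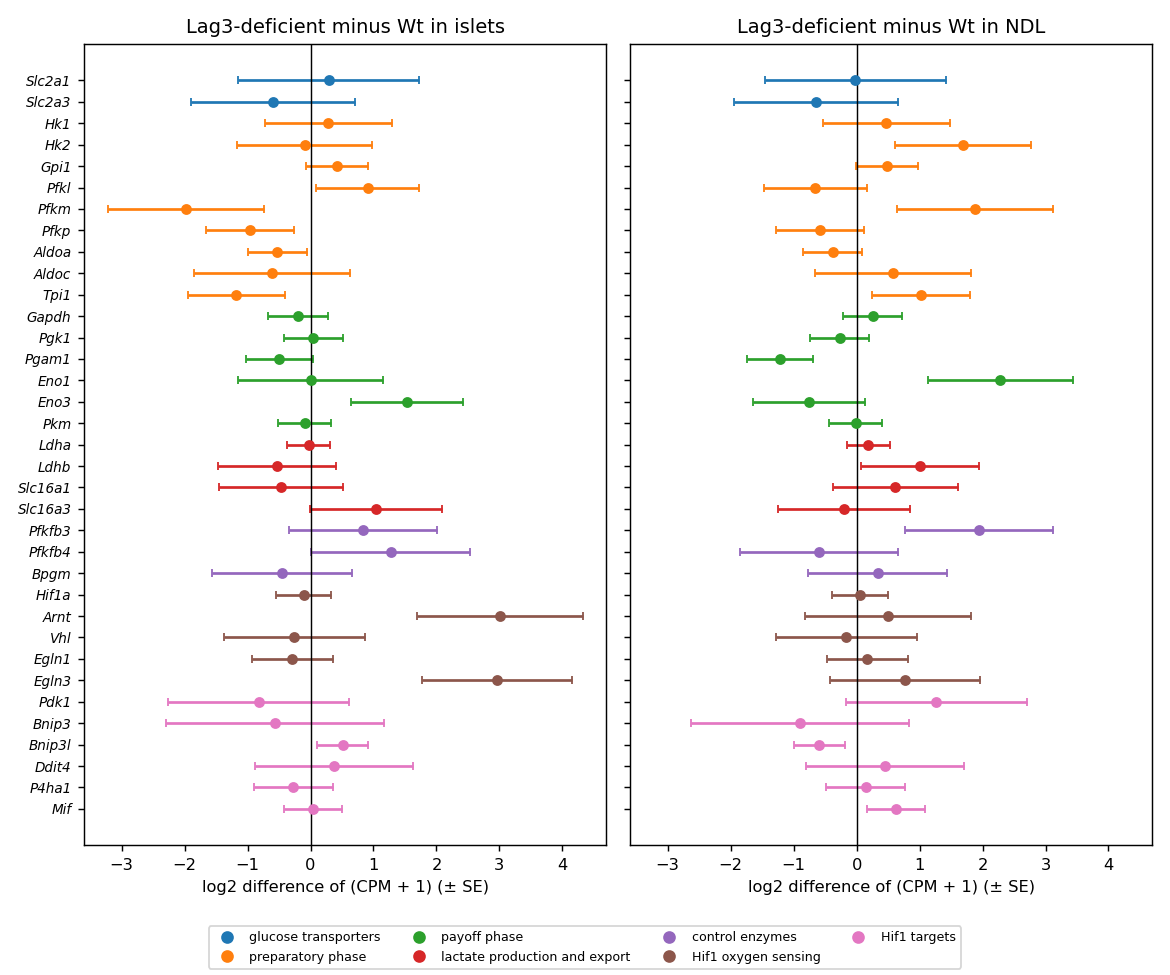
Log2 difference of (CPM + 1), Lag3-deficient minus Wt (horizontal axis, ± SE), for the 35 tested genes in islets (left) and NDL (right), coloured by role. No gene passed the test in either tissue, and Hif1a lies at -0.11 and 0.05.

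Related pathways were read from 6 further lists, in islet minus NDL with both genotypes averaged. Over all genes tested in this comparison, 47.9% were above 0, the median was -0.04 and 0.92% passed. Of 19 tested genes among 30 other hypoxia-induced genes, 13 were above 0 in islet minus NDL with a median of 0.57, against -0.04 over all genes, and 1 passed. This was Bhlhe40, a transcription factor gene induced by hypoxia and by T cell activation. It was at 206, 241 and 61.6 CPM in Wt islet and 306, 112 and 95.7 CPM in Lag3-deficient islet 1a, 2 and 1b, and at 0.725 to 54.3 CPM in NDL. All 6 islet libraries lay above NDL, with a difference of 4.17 ± 0.80 (adjusted p = 0.0125, and 0.0907 with no filter on low values). P4hb, a protein disulfide isomerase and collagen hydroxylase subunit, was at 224 ± 35.5 CPM in islets and 109 ± 36.1 CPM in NDL (1.13 ± 0.36, adjusted p = 0.188).

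Among 13 tested oxygen-sensing genes outside the main list, 6 were above 0 (median -0.03) and none passed. Cited2, which competes with Hif1a for the coactivator p300, had the smallest p, at 110 ± 36.1 CPM in islets and 37.1 ± 11.2 CPM in NDL (1.52 ± 0.43, adjusted p = 0.115). Among 21 genes of growth signalling upstream of glycolysis, 6 were above 0 (median -0.45) and none passed. Sesn1, a sestrin that restrains mTORC1, was lower in islets, at 72.5 ± 38 against 222 ± 47.2 CPM (-1.83 ± 0.44, adjusted p = 0.0523, past the threshold under 7 of 22 alternatives). Irf4, a transcription factor induced by T cell receptor signals, differed by 1.29 ± 0.44 (adjusted p = 0.23).

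The remaining lists held no gene that passed. Of 11 other glycolytic isoform and transporter genes, 3 were above 0 (median -0.62). Among the 3 was Slc2a6, at 6.02 ± 7.37 CPM in islets and 0.0487 ± 0.0598 CPM in NDL. It passed the filter only through islet libraries, so nothing is read from this count or median. Pfkfb2, a further bifunctional kinase and phosphatase of fructose-2,6-bisphosphate, was at 8.51 ± 15.6 CPM in islets and 38.3 ± 26.8 CPM in NDL (-3.14 ± 1.05, adjusted p = 0.213). Of 10 pentose phosphate genes, 7 were above 0 (median 0.19), with Rpe, ribulose-phosphate epimerase, at 2.48 ± 0.82 (adjusted p = 0.204). G6pdx, next by p, was at -1.61 ± 0.88 (adjusted p = 0.51 by limma). Of 11 genes for pyruvate entry into mitochondria, 4 were above 0 (median -0.12). Pdk2, a relative of Pdk1, had the smallest p but was near 0, at 0.0893 ± 0.101 CPM in islets and 3.02 ± 4.9 CPM in NDL. Its difference was -1.21 ± 0.57 (adjusted p = 0.436 by limma). Pdk2 passed the filter only through NDL libraries, so this difference is a description. For the same reason nothing is read from the count or median of its list. Mpc1, a subunit of the mitochondrial pyruvate carrier, was at 55.3 ± 22.8 CPM in islets and 99.4 ± 46.6 CPM in NDL (-0.82 ± 0.45, adjusted p = 0.514).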

How the data were processed

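RNA of 12 Treg libraries was deposited by the authors as 2 gene tables, each read as a signal. TopHat2, DESeq2 and the build mm10 are named in the submitters' processing notes, with no version or role. The first deposited table holds whole numbers whose totals nearly agree, a form of rescaled counts and not raw counts, so no count model was used. The second deposited table holds 10317 genes as a signal, its method not given in the sources used here, and was an alternative input.

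Scaling by trimmed means (30% of ratios, 5% of levels) used the 21708 genes above 0 in a library. Genes with at least 10 rescaled counts in 3 libraries were then fitted as log2(CPM + 1) with limma 3.58.1 in R 4.3.3. The fit had 4 group means and a mean-variance trend. The log2(CPM + 1) scale understates changes of weak genes. P-values were adjusted by Benjamini-Hochberg over all genes tested (threshold 0.05). All genes of the list are described, with up to 3 genes per related list by smallest p in the averaged tissue comparison. The genes, lists and tests were chosen with earlier results of these data known. Near copies were sought with blastn 2.17.0 in GENCODE vM21 transcripts. Promoters come from RefSeq, GRCm38.p6. The fit and the permutation test were tested on simulated data.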

Additional observations from a re-analysis of the deposited data

How the results depend on the processing

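The fit was repeated under 22 alternatives, of which 12 left out 1 library. The count of genes called between tissues, with genotypes averaged, was 1 as reported, 0 without the 1b libraries and 0 to 2 when 1 library was left out. It was 0 without Wt islet 1b and 2 without Lag3-deficient NDL 1b, where Eno1 joined Hif1a. Nothing is read from this count of 2, because Eno1 passed the filter only through NDL libraries. Hif1a kept its direction under all 22 (1.27 to 1.71) and passed under 20, with adjusted p from 0.0055 to 0.13. In the other comparisons no gene of the list passed under any alternative. Of the 35 genes, 25 kept the direction of the averaged tissue difference under every alternative in which they were fitted (18 to 22 of them) and 10 did not, Vhl changing it 8 times. Among the 25 is Eno1, from whose direction nothing is read. With no further scaling the median of all genes in that comparison was -0.14.

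Over all genes, the averaged tissue count of 100 became 40 with no filter, 45 without the 1b libraries, 151 with voom weights and 65 to 106 when 1 library was left out. In Wt cells the 20 became 11 with no filter or with the replicate block, 8 without the 1b libraries, 54 with voom weights and 9 to 25 when 1 library was left out. In Lag3-deficient cells the 13 became 7 with no filter, 26 with medians of ratios, 23 with voom weights, 31 in the second table, 24 without the 1b libraries and 9 to 32 when 1 library was left out.

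The islet-minus-NDL difference of the log2 ratio of Ldha to Ldhb stayed between 1.41 and 2.04 over 16 alternatives (exact permutation p from 0.005 to 0.0556), and that of Egln3 to Egln1 between 2.14 and 3.46 (exact permutation p from 0.01 to 0.111). Both upper p values came without the 1b libraries, where fewer arrangements of the labels exist and 0.0556 is the smallest p possible. That setting therefore could not give a p under 0.05. The cause of these changes was not tested.

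A replicate block by column number left the count at 1, with Hif1a at an adjusted p of 0.0234, and 0 genes of the list called in the other comparisons. The numbers do not pair the libraries. Deviations of libraries with the same number correlated at -0.09 to 0.16 (n = 18 pairs, median 0.02), and 9 of 12 libraries correlated best with their own number, a hint from the data and not the design.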
